A study of Mus musculus with 5 samples.

Results

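Intermediate filament genes were followed across 5 Affymetrix arrays of mouse embryonic stem cells. The 8 genes were the neurofilament subunits Nefl, Nefm and Nefh, the neuronal filament genes Ina and Prph, the progenitor filament gene Nes, and the mesenchymal and muscle filament genes Vim and Des. They were chosen by name with earlier results of these arrays known, in which Nefm had stood out by its difference between the genotypes. Their differences are therefore given as a description, and where counts from the fit over all genes are printed for them, these support nothing. All 8 were among the 18193 genes measured, each through the probe set whose 5-array mean was highest, and the array held 19 probe sets for them in all.

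The cells were of the E14 line and were grown on a layer of mouse embryo fibroblasts with leukaemia inhibitory factor. The groups were 2 wild-type (WT) arrays and 3 arrays of cells labelled Trip12 mut/mut, that is with both copies mutated. Trip12 encodes a HECT-type ubiquitin ligase. The nature of the mutation, the number of clones, the separation of the cultures and any removal of feeder cells before extraction are not given in the sources used here. Values are log2 RMA values, on which a difference of 1 is a factor of 2. In these RNA mixtures, fewer cells of a type and less RNA per cell cannot be told apart.

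Intermediate filaments are rope-like cytoskeletal polymers whose subunits share a central coiled-coil rod. Nefl, Nefm and Nefh encode the light, medium and heavy neurofilament chains, which copolymerise with alpha-internexin, the product of Ina, in the axons of neurons. Peripherin (Prph) belongs mainly to peripheral neurons, nestin (Nes) to neural and other progenitors, vimentin (Vim) to mesenchymal cells such as fibroblasts and to many cultured cells, and desmin (Des) to muscle. Vimentin, desmin and peripherin polymerise on their own, whereas Nefm and Nefh need a partner such as Nefl.

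The 3 arrays of mutant cells are called mutant 1, 2 and 3 after their labelled replicate numbers. The array labelled mutant 1 resembled WT. Of 45037 probe sets, 0 differed by over 2-fold between it and either WT array, or between the WT arrays, whereas mutants 2 and 3 each differed from the WT arrays at 293 to 545. At the probe set of Trip12 with the highest mean it read 10.18, beside 10.17 and 10.25 in WT and 12.09 and 12.57 on mutants 2 and 3. The signal of the mutated gene was thus higher there on mutants 2 and 3, at 4.35-fold of WT for their mean. Other probe sets of Trip12 were at 2.17-fold, 2.04-fold and 1.61-fold. Dim ones, with WT means of 3.77 and 3.05, were at 1.18-fold and 1.01-fold. Not all of its probe sets went this way. One with values of 6.11 and 6.10 in WT and 6.11 on the array labelled mutant 1 was lower on mutants 2 and 3, at 5.69 and 5.24. Whether the array labelled mutant 1 carries the right label cannot be settled from the deposited values, and every mean over 3 mutant arrays depends on it. Each difference of the 8 genes is accordingly given both with that array and without it. Because the array is set aside for its values, calls made without it are too favourable. Of 12 stem cell marker genes, which check the labelled cell type, 0 had a mean below 5.52, the median of all probe sets. Of 20 fibroblast marker genes only 1 did, so this check says nothing on the share of feeder cells.

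Promoter windows of 5 of the 8 genes were matched by symbol, those of Ina, Prph, Nes, Vim and Des. The 250 bases before the start site are shown for 3 genes, Ina and Nes, which were lower on mutants 2 and 3, and Vim, which was higher. They are from RefSeq, build GRCm38.p6, plus strand, at chr19:47014431-47014680 for Ina, chr3:87970843-87971092 for Nes and chr2:13574061-13574310 for Vim. Capitals mark, on either strand, the TATA box letters TATAAA, the CCAAT box and the GC box letters GGGCGG.
Ina: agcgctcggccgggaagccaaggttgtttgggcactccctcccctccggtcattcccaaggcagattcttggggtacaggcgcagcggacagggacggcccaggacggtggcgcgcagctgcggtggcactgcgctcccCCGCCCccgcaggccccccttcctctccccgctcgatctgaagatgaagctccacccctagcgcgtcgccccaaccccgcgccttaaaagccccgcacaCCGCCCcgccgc
Nes: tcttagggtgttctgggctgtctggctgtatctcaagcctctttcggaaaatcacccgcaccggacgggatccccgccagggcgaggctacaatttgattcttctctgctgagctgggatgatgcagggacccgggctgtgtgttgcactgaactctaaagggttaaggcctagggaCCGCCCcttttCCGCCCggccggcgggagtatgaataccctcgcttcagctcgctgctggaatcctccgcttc
Vim: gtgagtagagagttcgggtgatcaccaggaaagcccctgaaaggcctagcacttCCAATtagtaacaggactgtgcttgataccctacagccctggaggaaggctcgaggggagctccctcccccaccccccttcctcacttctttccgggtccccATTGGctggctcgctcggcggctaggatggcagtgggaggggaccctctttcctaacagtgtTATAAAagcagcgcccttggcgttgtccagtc
The letters TATAAA, those of the TATA box, began 32 bases before the start in Vim and 31 before it in Prph. They were absent from this window in Ina, Nes and Des, and 12.4% of all 32851 promoter windows of this length held them. CCAAT occurred 2 times in Vim and in none of the other 4, against 33.8% of all windows. GGGCGG, the GC box, occurred 2 times each in Ina, Nes and Des, 1 time in Prph and 0 times in Vim, against 32.7%. TGANTCA, the AP-1 motif (6.75% of windows), and TAATCC, the core letters bound by Otx2 (6.25%), had 0 matches in the 5 windows. G and C made up 70.8% of the Ina window, 58.8% of that of Nes and 58.4% of that of Vim, and the median over all windows was 52.4%. The motifs were picked for this description, and a match is only a match of letters.

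The light and medium neurofilament chains were much lower on mutants 2 and 3, and the heavy chain was not. Nefm, the medium chain, read 9.15 and 9.18 on the WT arrays, 9.09 on the array labelled mutant 1, 6.00 on mutant 2 and 6.25 on mutant 3. Mutants 2 and 3 were far below the other 3 arrays. All mutant arrays were below both WT arrays, the array labelled mutant 1 by only 0.08 from the WT mean of 9.16 ± 0.02 (SD, n = 2). Mutants 2 and 3 averaged 6.13 ± 0.18 (SD, n = 2), a difference of -3.04 (limma SE 0.11), or an 8.20-fold lower signal. This was the lowest of the differences of 18193 genes. Over all 3 mutant arrays, whose mean was 7.11 ± 1.71 (SD, n = 3), the difference was -2.05 (SE 1.06). Its low values lie near the median of all probe sets, and RMA gives no call of presence.

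Nefl, the light chain and core of the neurofilament, read 10.47 and 10.56 in WT, 10.55 on the array labelled mutant 1, and 8.62 and 8.52 on mutants 2 and 3. The array labelled mutant 1 lay between the WT arrays, and the other mutant arrays lay below both. Without that array the difference was -1.94 (SE 0.08), 3.84-fold lower, and over all 5 arrays it was -1.28 (SE 0.71). Its second probe set read 7.84 and 7.59 in WT, 7.60 on the array labelled mutant 1, and 6.24 and 6.01 on mutants 2 and 3, a 3.02-fold lower signal without the array labelled mutant 1. Both Nefl probe sets thus separated the arrays in the same way.

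Nefh, the heavy chain, whose long tail is phosphorylated in mature axons, read 8.89 on both WT arrays, 8.84 on the array labelled mutant 1, and 9.20 and 8.89 on mutants 2 and 3. The groups overlapped, and only mutant 2 was above the rest. The difference was 0.15 (SE 0.13) without the array labelled mutant 1, 0.09 (SE 0.13) over all 5 arrays and -0.03 without mutant 2. A single probe set stood for this gene, as for Nefm.

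**Figure D1:**
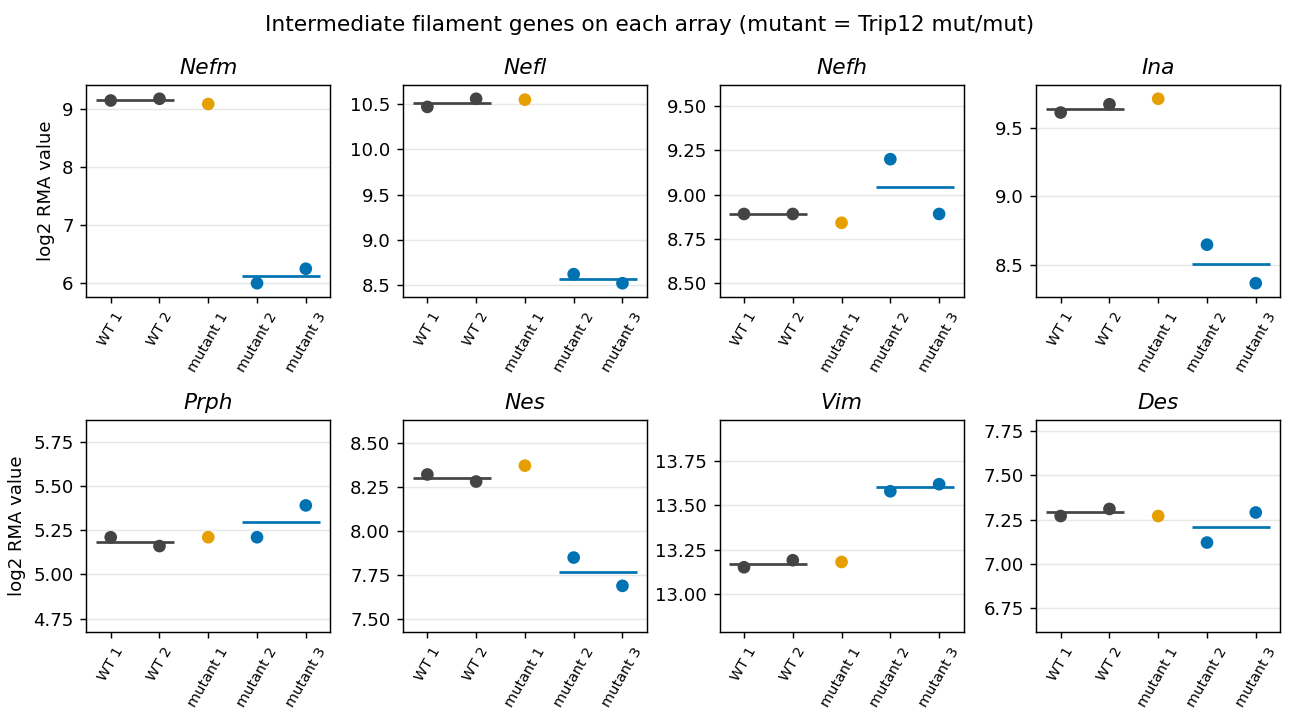
Log2 RMA value (y axis, own range in each panel) of the 8 filament genes on each of the 5 arrays (x axis); points are arrays, grey for WT, orange for the array labelled mutant 1, blue for mutants 2 and 3, and horizontal lines are the means of the 2 WT arrays and of mutants 2 and 3. Nefm, Nefl, Ina and Nes are lower and Vim is higher on mutants 2 and 3, whereas the orange point lies within 0.08 of the WT mean in every panel.

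Ina, the gene of alpha-internexin, was lower on the same arrays. It read 9.61 and 9.67 in WT, 9.71 on the array labelled mutant 1, and 8.65 and 8.37 on mutants 2 and 3. The last 2 arrays were below all others. The difference was -1.13 (SE 0.12), or 2.18-fold lower, without the array labelled mutant 1, and -0.73 (SE 0.44) with it. The other 2 probe sets of Ina were 2.30-fold and 2.24-fold lower, so all 3 gave a like value. Prph, the peripheral neuronal filament gene, read 5.21 and 5.16 in WT, 5.21 on the array labelled mutant 1 and 5.21 and 5.39 on mutants 2 and 3, all below the median of all probe sets. Its groups overlapped, with a difference of 0.12 without the array labelled mutant 1 and 0.09 with it. Its other 3 probe sets differed from WT by -0.16 to -0.01 on mutants 2 and 3, so its probe sets gave no common direction.

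Nes read 8.32 and 8.28 in WT, 8.37 on the array labelled mutant 1, and 7.85 and 7.69 on mutants 2 and 3. Mutants 2 and 3 were below the other arrays by a smaller step than for Nefm, Nefl and Ina. Without the array labelled mutant 1 the difference was -0.53 (SE 0.09), 1.44-fold lower, and with it -0.33 (SE 0.22). A second Nes probe set was also 1.44-fold lower, and the third, with a WT mean of 3.60, was dim and 1.17-fold lower, with the array labelled mutant 1 (3.30) as low as mutants 2 and 3 (3.37 each).

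Vim was the 1 gene of the 8 that was above both WT arrays on both of these arrays. It read 13.15 and 13.19 in WT, 13.18 on the array labelled mutant 1, and 13.58 and 13.62 on mutants 2 and 3. The last 2 arrays were above all others, by 0.43 (SE 0.07) or 1.35-fold over the WT mean, and over all 5 arrays the difference was 0.29 (SE 0.16). Its other 2 probe sets were at 1.21-fold and 1.42-fold of WT on mutant 2 and at 1.08-fold and 1.17-fold on mutant 3. Des, the muscle filament gene, read 7.27 and 7.31 in WT, 7.27 on the array labelled mutant 1, and 7.12 and 7.29 on mutants 2 and 3. Its arrays overlapped, with a difference of -0.09 (SE 0.09) without the array labelled mutant 1 and -0.07 (SE 0.08) with it.

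**Figure D2:**
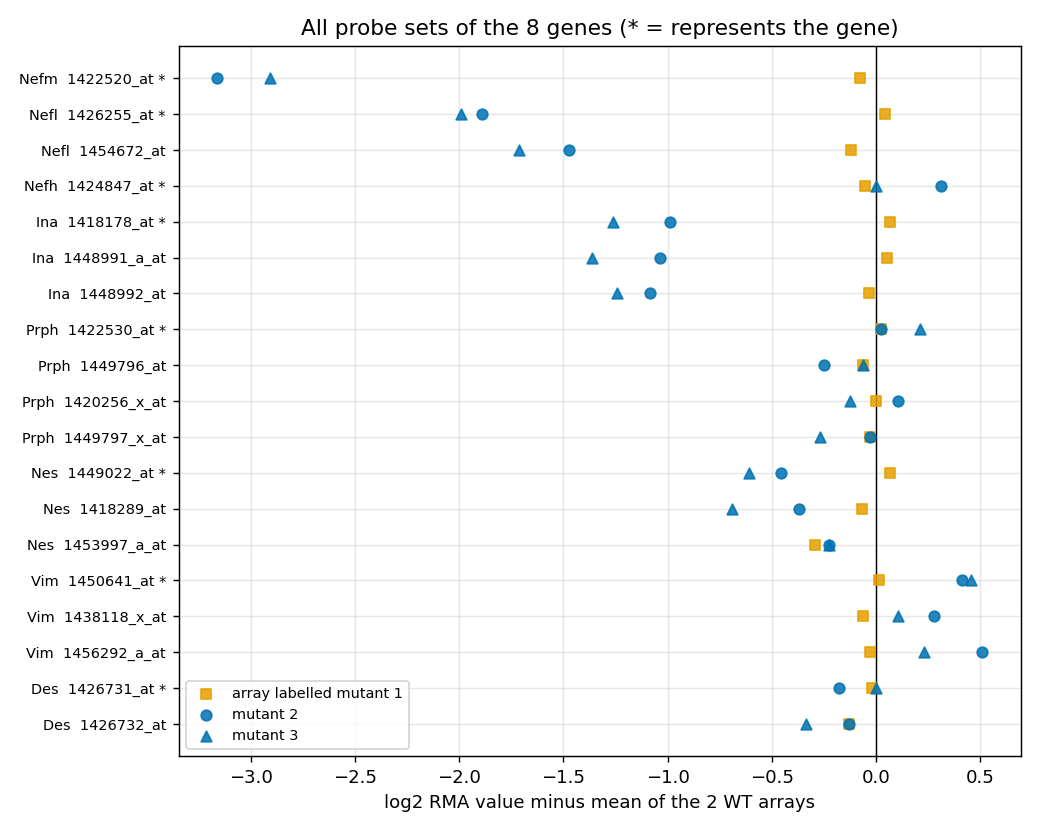
Difference of each mutant array from the mean of the 2 WT arrays on the log2 scale (x axis) for all 19 probe sets of the 8 genes (y axis); an asterisk marks the probe set that represents a gene, squares are the array labelled mutant 1, circles mutant 2 and triangles mutant 3. The 3 probe sets of Ina and the 2 of Nefl lie far left of 0 on mutants 2 and 3, and the 3 of Vim lie right of it.

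By count, 4 of the 8 genes were below both WT arrays on both mutants 2 and 3, where 17.5% of all genes were, and 1 was above both, where 26.7% were. A mean difference of at least 2-fold lower was seen for 3 of the 8, against 0.544% of all genes, and at least 2-fold higher for 0 of 8, against 0.363%. All 3 mutant arrays lay below both WT arrays for 1 gene, Nefm, against 6.29% of all genes, and above both for 0, against 5.73%. The median difference of the 8 genes was -0.31 without the array labelled mutant 1, beside 0.02 over all genes, and -0.20 beside 0.02 with it. Over all 5 arrays limma called 0 of the 8 and 0% of 18193 genes after Benjamini-Hochberg adjustment, with 214 genes at an unadjusted p below 0.05. Without that array, and with dim probe sets removed, 7 of the 8 genes were kept, all but Prph. There 3, namely Nefm, Nefl and Ina, had calls as lower, where 1.34% of 11626 genes did, and 0 as higher, where 3.29% did, 4.64% in all. Since the genes were picked with this contrast known and an array was set aside for its values, these calls are no test of the 8 genes and nothing is read from them.

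Nefl and Nefm adjoin on chromosome 14 with no protein-coding gene between them in the annotation, and the other 6 genes lie on 6 other chromosomes. Dock5, the measured gene on the Nefl side, which encodes an activator of the small GTPase Rac, read 7.98 and 8.05 in WT, 7.96 on the array labelled mutant 1, and 8.37 and 8.50 on mutants 2 and 3. It was thus higher where Nefl and Nefm were lower. On the Nefm side, the metalloproteinase family genes Adam7 and Adamdec1 were dim on every array, at 4.21 to 4.46 and at 3.31. Gnrh1, the gene next to Dock5, was not analysed here.

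The genes most like Nefm were sought by Pearson correlation over the 5 arrays, among 376 other genes with a mean at or above the median and a range of at least 1. The first 5 were Fgf15, a growth factor gene (r = 0.9998), the carbonic anhydrase gene Car2 (0.9998), the germline and early embryo factor Dppa3 (0.9996), the Wnt target Sp5 (0.9994) and the meiotic chromosome gene Sycp3 (0.9992). Since the 5 arrays form 2 clusters, any gene that differs on mutants 2 and 3 alone has an r near 1 or -1, and these values are no more than an ordering. Fgf15 was 2.91-fold lower without the array labelled mutant 1, Car2 2.34-fold, Dppa3 4.30-fold and Sycp3 3.03-fold. Sp5 read 6.38 and 6.45 in WT and 5.26 and 5.36 on mutants 2 and 3, below the median of all probe sets, and no fold is given for it.

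Among 14 other intermediate filament genes, the epithelial keratins Krt7, Krt8 and Krt18 fell and no other gene was called. In the comparison without the array labelled mutant 1 and without dim probe sets, 3 of 10 tested fell and 0 rose (limma, Benjamini-Hochberg adjusted p below 0.05 over all 11626 genes). Of all genes 1.34% fell and 3.29% rose there. Of the 10 tested, 7 had an unadjusted p below 0.05, 3 of them lower. Lmna, picked after its value was seen, differed by 0.69 (adjusted p = 0.052), just short of the threshold. Without the dim filter the same arrays gave 0 calls among all 18193 genes, with 3730 at an unadjusted p below 0.05, so every call printed exists only with the array left out and the filter together. Krt8 read 11.22 and 11.27 in WT, 11.21 on the array labelled mutant 1, and 8.96 and 9.44 on mutants 2 and 3, and fell by 2.04 (SE 0.18, adjusted p = 0.042). Krt18, whose product pairs with that of Krt8, read 10.52 and 10.55 in WT, 10.57 on the array labelled mutant 1 and 9.39 and 9.13 on mutants 2 and 3, and fell by 1.28 (SE 0.11, adjusted p = 0.042). Krt7 fell by 0.78 (SE 0.11, adjusted p = 0.048), whereas Krt19, another keratin of simple epithelia that was picked after its value was seen, differed by 0.33 (adjusted p = 0.119). The median over the 14 genes was 0.003, beside 0.02 over all genes. Over all 5 arrays 0 of the 14 passed in limma, each of the 3 keratins had an adjusted p of 0.748, and 0 of the 14 had an unadjusted p below 0.05.

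No gene for a protein that links, chaperones, phosphorylates, carries or degrades filaments was called. Of 24 such genes 21 were measured, with a median difference of -0.03 without the array labelled mutant 1. Of 20 tested without dim probe sets, 0 passed in limma, while 7 had an unadjusted p below 0.05, 3 of them lower. Of all genes 4.64% passed, so with 20 tested little can be read from 0 calls. The largest differences were those of Plk1, a mitotic kinase (-0.78, SE 0.19, adjusted p = 0.092), and Dsp, which encodes desmoplakin, the anchor of filaments at desmosomes (-0.76, SE 0.13, adjusted p = 0.058). Over all 5 arrays 0 of 21 passed and 0 had an unadjusted p below 0.05.

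Beside the lower neurofilament signal, neural progenitor markers were called in both directions. Of the 2 neuronal calls, the 1 as higher, that of Mapt, is given no weight below. Of 16 neuronal markers 7 had a mean below the median of all probe sets, and the synaptic gene Snap25 and the migrating-neuron gene Dcx, picked here after looking at their values, had WT means of 3.12 and 3.51. The 16 genes summed to a linear level of 4057 and 4121 in WT, 3941 on the array labelled mutant 1, and 3780 and 4333 on mutants 2 and 3, so the 2 genotypes overlapped. The brightest gene, Stmn2, with a WT mean of 11.09, weighs most in these sums. The mean log2 value of the 16 was 6.26 on both WT arrays. It was 6.21 on the array labelled mutant 1, below both WT arrays, and 6.28 and 6.34 on mutants 2 and 3, above both. These means include Mapt, described below, which differed from WT by 1.10 on mutant 2 and 1.01 on mutant 3. A rise of the list as a whole is therefore not read from them. Their median difference was 0.01 without the array labelled mutant 1. In the same filtered comparison 2 of 10 tested were called, 1 lower and 1 higher, where 4.64% of all genes were called. Elavl3, a neuronal RNA-binding protein gene, fell by 0.62 (SE 0.08, adjusted p = 0.048). Mapt, which encodes the axonal microtubule protein tau, was called as higher (adjusted p = 0.042), but it passed the dim filter only through the arrays where it was high, so this call is given no weight. It read 4.98 and 4.76 in WT and 4.60 on the array labelled mutant 1, all below the median of all probe sets, and 5.97 and 5.88 on mutants 2 and 3. The markers with the highest means were Stmn2, a microtubule regulator, and Uchl1, a deubiquitinase, with differences of -0.14 (adjusted p = 0.506) and 0.16 (adjusted p = 0.313). Of 14 measured neural progenitor markers 8 were tested, and 1 was called as lower and 1 as higher. Without the array labelled mutant 1 the median difference was -0.08 over the 14 and -0.46 over the 8 tested. Among those tested, Sox3, Pax6, Msi1 and Slc1a3, picked after their values were seen, read 5.48, 5.51, 5.51 and 5.46 on mutant 3. These values lie below the median of all probe sets, so the dim filter kept these genes through their WT values. The median over the 8 is thus given no weight. On both mutants 2 and 3, 6 of the 14 were below both WT arrays, where 17.5% of all genes were. Above both were 3, where 26.7% of all genes were. Zic1, a neural transcription factor, rose by 1.23 (SE 0.13, adjusted p = 0.042), and Prom1, which encodes a membrane protein of progenitors, fell by 1.40 (SE 0.11, adjusted p = 0.042). Cdh2, the N-cadherin gene, differed by 0.52 (adjusted p = 0.133). With all 5 arrays 0 genes of either list passed in limma, and 0 and 1 had an unadjusted p below 0.05.

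**Figure D3:**
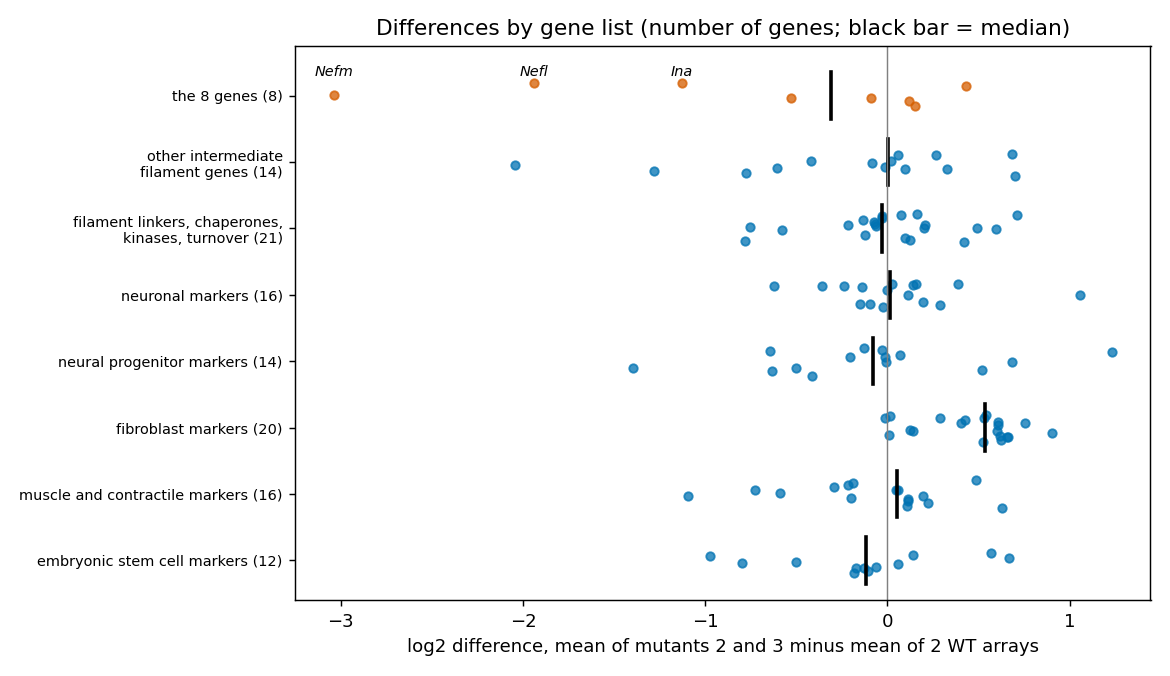
Log2 difference of the mean of mutants 2 and 3 from the mean of the 2 WT arrays (x axis) for each measured gene of the 8 filament genes and of 7 gene lists (y axis, number of genes in brackets); dots are genes, spread vertically at random, and black bars are medians. Nefm at -3.04, Nefl at -1.94 and Ina at -1.13 lie left of the rest of the 8 genes. Among the other intermediate filament genes, Krt8 at -2.04 lies left of Nefl and Krt18 at -1.28 left of Ina. The fibroblast markers have a median of 0.54.

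Most fibroblast markers, but not all, were higher on the arrays where Vim was higher. The 20 genes summed to a linear level of 42843 and 43373 in WT, 42251 on the array labelled mutant 1, 64282 on mutant 2 and 61787 on mutant 3, which is 1.49-fold and 1.43-fold of WT on the last 2. Vim was at 1.33-fold and 1.37-fold there. Of the 20 genes 15 were above both WT arrays on both mutants 2 and 3, where 26.7% of all genes were, and 0 were below both, where 17.5% were. In the comparison without the array labelled mutant 1 and without dim probe sets, 5 of 19 rose, where 3.29% of all genes did, and 0 fell. Twist2 and Prrx1, mesenchymal transcription factors, rose by 0.90 and 0.66 (adjusted p = 0.042 for each), Col5a1, a fibrillar collagen gene, by 0.76 (adjusted p = 0.043) and S100a4, a calcium-binding protein gene, by 0.62 (adjusted p = 0.045). The brightest, the matrix genes Dcn and Postn, differed by 0.42 (adjusted p = 0.067) and 0.62 (adjusted p = 0.053). With all 5 arrays 0 of 20 passed in limma and 0 had an unadjusted p below 0.05. The median over the 20 genes was 0.54 without the array labelled mutant 1 and 0.35 with it. The part of the fibroblast signal in the Vim value, and in the lower filament genes, was not tested.

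Muscle and contractile markers, read beside Des, had a median difference of 0.06 over 16 genes, 7 of which were below the median of all probe sets, including the myogenic factors Myod1 and Myog, picked after their values were seen, at WT means of 3.96 and 3.96. Cnn1, a smooth muscle calponin gene, fell by 1.10 (SE 0.07, adjusted p = 0.040), the 1 gene of 10 tested that passed. Of all genes 4.64% passed. Cnn1 read 6.65 and 6.59 in WT but 5.54 and 5.51 on mutants 2 and 3, near the median of all probe sets. It would not have passed the dim filter without the WT arrays, where it was high, so this call is given no weight. The brightest were Tagln and Tpm2, actin-binding protein genes, with differences of 0.11 (adjusted p = 0.556) and 0.49 (adjusted p = 0.053). With every array kept 0 of 16 passed and 1 had an unadjusted p below 0.05. Of the 12 stem cell markers 2 fell and 0 rose in the filtered comparison, where 1.34% of all genes fell and 3.29% rose. The 2 were Lin28a, an RNA-binding protein gene (-0.97, SE 0.11), and Utf1, a chromatin factor (-0.80, SE 0.09), each with an adjusted p of 0.042. The brightest, Dppa5a and Tdgf1, differed by 0.06 (adjusted p = 0.560) and -0.10 (adjusted p = 0.396). The summed level of the 12 was at 0.929-fold and 0.964-fold of WT on mutants 2 and 3, beside 0.122-fold for the mean Nefm signal on these arrays. Dppa5a, with a WT mean of 14.18, weighs most in this sum, which therefore says little on the dimmer markers. With every array kept 0 of 12 passed in limma and 0 had an unadjusted p below 0.05.

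**Figure D4:**
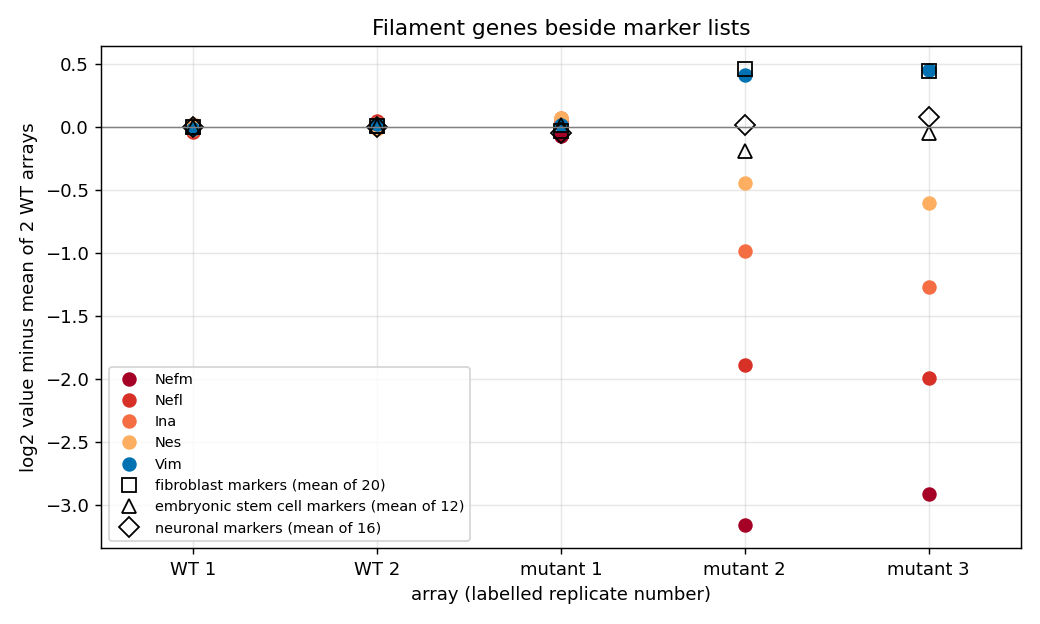
Difference from the mean of the 2 WT arrays on the log2 scale (y axis) on each array (x axis) for 5 filament genes (filled circles) and for the mean log2 value of 20 fibroblast, 12 stem cell and 16 neuronal markers (open symbols). On mutants 2 and 3 Vim and the fibroblast mean lie above 0, Nefm, Nefl, Ina and Nes below it, and all lie near 0 on the array labelled mutant 1.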

How the data were processed

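RNA of 2 WT and 3 Trip12 mut/mut samples was measured on 1 array each. The authors' deposited values are log2 values, 1 per probe set and array, made with RMA per the submitters' processing notes (background correction, normalisation between arrays, summary per probe set; version not given in the sources used here). Since array medians were 5.51 to 5.55, no shift common to all transcripts can be seen. RMA gives no detection call, and few arrays limit the precision.

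Of 45101 probe sets 64 array controls were left out. The platform annotation gave 34945 probe sets 1 gene symbol, and 932 with several named no gene. Symbols of 34741 were updated by gene number through RefSeq GRCm38.p6, used otherwise only for gene order, chromosomes and promoters. The fit was a two-sided limma comparison of the genotypes without further terms (version 3.58.1, R 4.3.3), with Benjamini-Hochberg adjustment over all genes and a threshold of 0.05. Differences are Trip12 mut/mut minus WT. A dim gene had fewer than 2 arrays above the median of all probe sets, 5.52. SEs without the array labelled mutant 1 are from the fit with dim genes removed.

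In the text, mutant 1, 2 and 3 are the Trip12 mut/mut replicates of those numbers. Members, lists, tests and most alternatives were chosen with earlier results of these data known. Named were the 8 genes; in each list up to 4 genes past the threshold with the smallest adjusted p without the array labelled mutant 1 and without dim genes, or the 2 largest differences where none passed; the 2 brightest markers of each marker list; the 5 genes most like Nefm; the 2 neighbours on each side of Nefl and Nefm; and Trip12. Genes picked after their values were seen are marked. The labels call the samples biological replicates without saying how they were made, so p-values measure only the spread between these samples. On simulated data the fit over 5 arrays and 18193 genes recovered 86 of 100 genes changed by 2 and 51 of 100 changed by 1 (log2), and made 8 false calls. Without the array labelled mutant 1, over 11626 genes, it recovered 82 and 47, with 3 false calls. In both runs each change was put on every mutant array, with independent noise. On the real arrays, however, the one labelled mutant 1 resembled WT. The run over 5 arrays is thus no measure of what that fit could find in these data. Figures were drawn with matplotlib 3.10.9.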

Additional observations from a re-analysis of the deposited data

How the results depend on the processing

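Over 14 alternatives (quantile normalisation, median centring, the dim filter, a robust variance trend, weights for arrays, a replicate block, leaving out each array in turn, a gene's mean probe set or its most variable one, and the filter joined with the loss of the array labelled mutant 1) only the last made any call. It called 539 genes in place of 0, with 3 other filament genes, 2 neuronal, 2 neural progenitor, 5 fibroblast, 1 muscle and 2 stem cell markers in place of 0, and 0 linker genes. That array left out with no filter gave 0 calls and 3730 genes at an unadjusted p below 0.05. The differences of Nefm ranged from -3.04 to -1.49, of Nefl from -1.94 to -0.92, of Ina from -1.13 to -0.46, of Nes from -0.53 to -0.19 and of Vim from 0.21 to 0.43, with no change of sign in any alternative. Nefh changed sign without mutant 2 (-0.03), and Prph with the mean of its probe sets (-0.04) or the most variable one (-0.11); Des moved to -0.20 with the latter. Replicate numbers 1 and 2 occur in both groups, and the labels name no pairing. Deviations of same-numbered arrays from their group means correlated at -0.05 and -0.08 across genes. These values cannot decide whether the arrays were paired. The 2 WT deviations mirror each other, and the array labelled mutant 1 stood apart from mutants 2 and 3. With the replicate block 0 genes were called, as without it, and the Nefm difference was -1.62. Signals near the background limit Prph, the dim probe set of Nes and the low Nefm values.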
